A study of Mus musculus with 7 samples.

Results

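Expression of 9 histone genes was followed in the embryonic mouse cortex. They are the linker histone genes Hist1h1c and H1f0, the core histone gene Hist1h2bc, the H2A variant genes H2afz, H2afv, H2afx and H2afy, and H3f3a and H3f3b, which both encode the H3.3 variant. The genes were listed by name, out of 23413 gene symbols in the union of the tables, and each was detected in all 7 libraries. They were picked with 2 contrasts of these data in view: cycling against postmitotic cells, and mutant against control embryos. Values of the members in those contrasts are therefore a description and carry no test. Tests are given for contrasts that the choice did not use, such as S phase against G2/M and one neuron class against another. An interaction of genotype with cell state is given too, but it rests on sums used in those 2 contrasts.

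The cortices came from 7 embryos of 1 litter, collected at E18.5 and profiled by single-cell RNA sequencing on Seq-Well arrays, in which each cell shares a small well with a barcoded bead that captures poly(A) RNA. The 4 mutant embryos (replicates 10, 11, 12 and 17) were Emx1CreERT2;Ash1lfl/fl, and the 3 controls (replicates 14, 15 and 16) were Ash1lfl/fl without the Cre. All of them carried floxed alleles of Ash1l, a histone H3 lysine methyltransferase gene, and all were exposed to tamoxifen, given to the dam at 100 mg/kg at E10.5. The Cre is driven from Emx1, a gene of dorsal forebrain progenitors, so interneurons and other cells from outside that lineage are not its targets. Each library held 7083225 to 11859209 UMIs (unique molecular identifiers, one per captured transcript), and 23005 barcodes with at least 500 detected genes and at most 10% mitochondrial UMIs were kept, 2114 to 4285 per embryo. Their median was 1241.5 to 2133 UMIs. Libraries shared 185 barcodes over 21 pairs, at most 13 in a pair. Ash1l itself stood at 121.3 to 170.4 CPM (UMIs of the gene per 1000000 UMIs of the same cells) in mutants and 161.6 to 217 in controls, ranges that overlap. After the normalisation used for the tests it stood at 124.9 to 165.3 in mutants and 165.8 to 217.2 in controls. Those ranges did not overlap, by a thin margin, as was so for 9.79% of 12893 genes. Which exons are floxed is not given in the sources used here, so reads may come from outside the deleted part and the level need not check the labels.

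Nucleosomes wrap DNA around core histones, and linker histones bind where the DNA enters and leaves them. Most histone mRNAs are made during S phase and end in a conserved stem-loop in place of a poly(A) tail, which ties their supply to DNA replication. Replacement variants, by contrast, come from polyadenylated mRNAs throughout the cell cycle and in cells that have stopped dividing: H3.3 is laid down outside replication, H2A.Z (from H2afz and H2afv) marks promoters, phosphorylated H2A.X marks broken DNA, and macroH2A (from H2afy) marks repressed chromatin. Neurons leave the cycle early and live long, so they depend on the replacement histones for their later chromatin.

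Of the 9 genes, Hist1h1c and H2afx held a stem-loop upstream of a poly(A) signal in the GENCODE M21 transcripts. Their stem-loops are shown because they are the feature of replication-dependent mRNAs, whereas the beads capture polyadenylated RNA. The pattern searched, on the transcript strand alone, was the histone stem-loop consensus. Capitals mark the match of 16 bases, and 5 bases on each side are in lower case.
Hist1h1c: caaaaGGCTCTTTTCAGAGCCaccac
H2afx: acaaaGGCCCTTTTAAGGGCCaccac
In Hist1h1c (chr13:23738808-23740367, mm10, plus strand, 1 exon) the match lay at chr13:23739512-23739527 in the 3′ UTR, 27 bases past the coding end and 840 bases before the annotated transcript end. In H2afx (chr9:44334694-44336077, plus strand, 1 exon) it lay at chr9:44335240-44335255, also in the 3′ UTR, 49 bases past the coding end and 822 bases before the transcript end. Both transcripts carried a poly(A) signal in their last 60 bases, AATAAA in Hist1h1c and ATTAAA in H2afx. The pattern occurred in 46 of 67 Hist1h to Hist4h genes with a protein-coding transcript (68.7%) and in 68 of 21877 protein-coding genes (0.311%). None of the other 7 members held it in an annotated protein-coding transcript. For Hist1h2bc the annotation has only a spliced transcript that spans chr13:23684199-23692908.

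Promoters from RefSeq (GRCm38.p6, 250 bases before to 50 after the gene's start) were matched for 7 of the 9 genes, leaving H2afx and Hist1h2bc. The promoters of the H2A.Z pair, H2afz and H2afv, are shown because the pair moved together across the cell cycle, and that of H3f3b as a contrast, since its level differed little between cycling cells and neurons. Capitals mark the CCAAT box, the cell cycle element TTTGAA and the TATA box letters TATAAA on either strand, the reverse complement standing for a match on the other strand.
H2afz (chr3:137864237-137864536, plus strand): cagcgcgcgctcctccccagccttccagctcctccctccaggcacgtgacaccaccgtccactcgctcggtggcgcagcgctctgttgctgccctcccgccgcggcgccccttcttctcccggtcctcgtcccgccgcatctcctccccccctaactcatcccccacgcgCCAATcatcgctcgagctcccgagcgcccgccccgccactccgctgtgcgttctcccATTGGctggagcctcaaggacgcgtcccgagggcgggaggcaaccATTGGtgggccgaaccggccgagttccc
H2afv (chr11:6444394-6444693, minus strand): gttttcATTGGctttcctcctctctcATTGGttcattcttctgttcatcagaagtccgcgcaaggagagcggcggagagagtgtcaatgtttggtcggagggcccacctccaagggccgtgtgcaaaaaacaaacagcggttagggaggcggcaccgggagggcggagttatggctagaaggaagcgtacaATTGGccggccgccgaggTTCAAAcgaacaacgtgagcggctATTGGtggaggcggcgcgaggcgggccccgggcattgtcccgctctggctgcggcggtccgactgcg
H3f3b (chr11:116024455-116024754, minus strand): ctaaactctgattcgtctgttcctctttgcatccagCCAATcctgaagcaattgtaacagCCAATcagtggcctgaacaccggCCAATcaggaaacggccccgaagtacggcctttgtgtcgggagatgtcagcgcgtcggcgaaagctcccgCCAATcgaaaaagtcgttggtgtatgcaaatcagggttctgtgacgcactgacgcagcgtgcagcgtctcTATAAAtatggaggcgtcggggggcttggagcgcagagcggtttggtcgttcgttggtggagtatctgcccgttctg
CCAAT occurred 3 times in the H2afz promoter, 4 times in H2afv and 4 times in H3f3b, and in 37.4% of all 32851 promoters. TTTGAA occurred once, in H2afv, against 17.9% of all promoters, and TATAAA once, in H3f3b, against 13.6%. Hist1h1c held 1 CCAAT and 1 AAACACA, the letters of the box known from H1 promoters, which 7.18% of promoters hold; H3f3a held 1 of each as well. H1f0 and H2afy held none of these motifs, and TTTNNCGC, an E2F-like motif present in 5.17% of promoters, was in none of the 7. A match is only a match of letters in this window.

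Cycling cells were taken by the number of S or G2/M markers detected, at least 3 of 60, and postmitotic neurons as cells with no such marker and at least 3 of 18 neuronal markers. The first gate was mixed. It held 7715 cells (33.5% of those kept), of which 5896 also had at least 3 neuronal markers, and 2478 sat exactly on the limit of 3 cycling markers. A stringent gate, which also asked for at most 2 neuronal markers, left 1819 cells (7.91%), 162 to 406 per embryo. The radial glial gene Pax6, which no gate used, was present in these cells. In their S-leaning and G2/M-leaning subsets it averaged 236 and 311 CPM, against 19.4 in excitatory-like neurons. Stmn2 averaged 47.3 and 81.3 CPM in these subsets, against 1665. It is among the 18 neuronal markers, so its low level follows from the gate and is no check of it. Results for the cycle are given for both gates, with values from the stringent one. Levels are CPM of the cells summed per embryo; folds come from edgeR after normalisation. Levels of different genes are not compared, since they were not set per length.

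The 2 H2A.Z genes, H2A.X, H1f0 and macroH2A were higher in dividing cells, while the 2 H3.3 genes and the Hist1 pair differed by at most 0.17 on the log2 scale in the stringent gate. H2afv, which encodes the second form of H2A.Z, stood at 576, 554, 517 and 789 CPM in stringent cycling cells of mutants 10, 11, 12 and 17 and at 624, 612 and 641 in controls 14, 15 and 16. In postmitotic neurons of the same embryos it stood at 118, 127, 127 and 133, and at 123, 121 and 166. Every embryo was higher in its cycling cells, and the lowest cycling value lay above the highest postmitotic one. The log2 fold change was 2.14 ± 0.07 (SE, n = 7 embryos).

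H2afz, the other H2A.Z gene, stood at 76.4, 49.9, 116 and 70.1 CPM in cycling cells of the mutants and 143, 104 and 102 in those of the controls, and at 10.8, 13.5, 17.2 and 20.6 against 30.0, 23.6 and 34.3 in postmitotic neurons (log2 fold change 2.04 ± 0.16). H2afx, for the H2A.X variant of DNA damage signalling, rested on few molecules outside the cycle: 5.38 to 18.1 CPM in postmitotic neurons and 40.0 to 112 in cycling cells (2.65 ± 0.18). For both genes all 7 embryos lay higher in cycling cells and the ranges did not overlap.

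H1f0, the linker histone otherwise known for building up as cells differentiate, was also the higher in dividing cells. It stood at 604, 658, 719.8 and 599 CPM in cycling cells of the mutants and 588, 495 and 670.3 in those of the controls, against 246, 206, 311 and 175 and against 166, 178 and 184 in neurons (log2 fold change 1.49 ± 0.07). H2afy, for macroH2A, showed the smallest of these differences, with 568 to 888 in cycling cells and 341 to 538 in neurons (0.64 ± 0.06). Cycling cells were above neurons in 7 of 7 embryos for both genes.

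The H3.3 genes differed little: H3f3b averaged 894 ± 92.5 (SD, n = 7) CPM in cycling cells and 818 ± 65.2 in neurons (log2 fold change 0.05 ± 0.06), and H3f3a 219 ± 32.3 and 235 ± 52.7 (−0.17 ± 0.08). Hist1h1c (0.16 ± 0.09) and Hist1h2bc (−0.17 ± 0.10), a linker and an H2B gene of the replication-dependent cluster on chromosome 13, overlapped as well. With the mixed gate the same 5 genes had the higher values but smaller folds: 0.98 ± 0.06 for H2afv, 0.99 ± 0.14 for H2afz, 1.42 ± 0.17 for H2afx, 0.65 ± 0.06 for H1f0 and 0.16 ± 0.05 for H2afy. Those 5 of 9 members were past the threshold (edgeR, adjusted p under 0.05, higher) where 33.7% of 8492 genes were with the stringent gate and 16.4% of 10327 with the mixed one. With every cell thinned to 1000 UMIs before the mixed gate was applied, Hist1h1c (0.26 ± 0.09) and H3f3b (0.17 ± 0.05) were past it as well, which made 7 of 9 members where 24% of 8325 genes were. The members were picked on this contrast, so nothing is read from these counts.

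**Figure D1:**
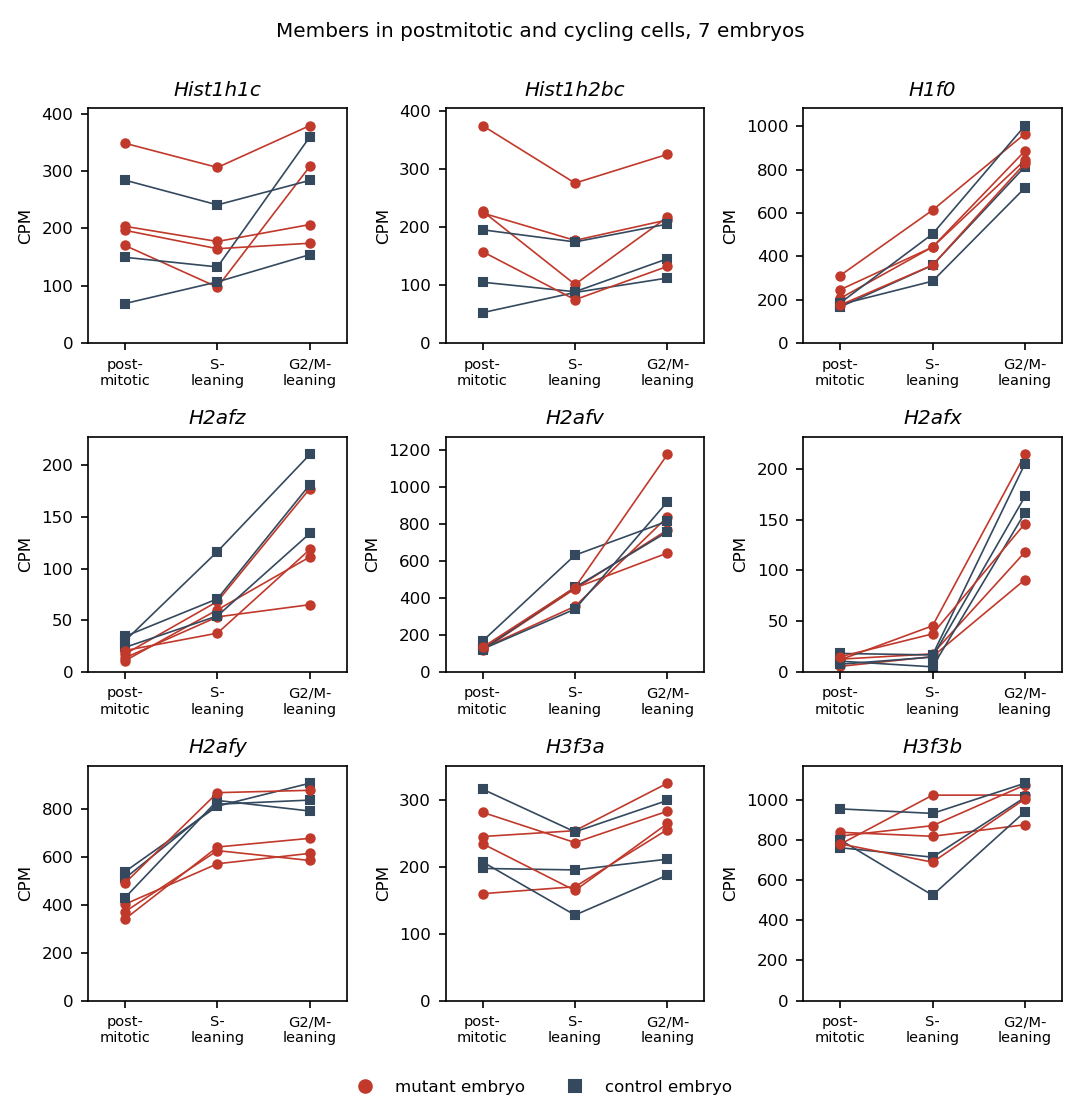
Level of each member (CPM, y axis from 0) in postmitotic neurons and in S-leaning and G2/M-leaning cells of the stringent cycling gate; each line joins 1 embryo, red circles for the 4 mutants and dark squares for the 3 controls. H2afx rose from 21.7 in S-leaning to 158 in G2/M-leaning cells on average, while H2afy was level between the phases at 739 and 756.

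Genes that handle histones were tested in the same contrast of stringent cycling cells and neurons, in which 33.7% of all genes were called higher. Of the chaperones of replication and general histone supply 11 of 12 tested genes were higher and 0 lower, with a median log2 fold change of 0.90 against 0.01 for all genes. They included Chaf1a (2.91 ± 0.20, adjusted p = 1.6e-16), a subunit of the CAF-1 complex that loads H3 and H4 behind the fork, and Nasp (1.32 ± 0.07, adjusted p = 6.3e-20), which holds soluble H3 and H4. Of the genes that process histone mRNA ends 7 of 10 were higher, among them Slbp (1.36 ± 0.19, adjusted p = 3.4e-08), whose protein binds the stem-loop shown above, and 1, Lsm11, was lower (−0.88 ± 0.18, adjusted p = 6.1e-05). All adjusted p values in this paragraph and below are from edgeR's quasi-likelihood test over all genes.

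Of all 8492 genes tested 2860 were called higher and 2734 lower, and factors that place the variants went both ways too. The H3.3 deposition list, with 3 of 8 genes higher and 2 lower, lay near those shares. In the H3.3 deposition list of 8 genes, Dek (1.85 ± 0.08, adjusted p = 2.2e-22), Asf1a and Ubn1 were higher in cycling cells, and Atrx (−0.85 ± 0.06, adjusted p = 3.4e-15) and Hira (−0.45 ± 0.12, adjusted p = 0.00079), which belong to the 2 main H3.3 loading pathways, were lower; the list's median was 0.08. In the H2A.Z exchange list 4 of 12 were higher, close to the share of all genes, and 0 lower (median 0.07); the smallest p was that of Anp32e (1.44 ± 0.07, adjusted p = 5.2e-22), a chaperone that takes H2A.Z off nucleosomes. Of the partners of H2A.X in damage signalling 9 of 11 were higher, with Brca1 highest at 4.20 ± 0.26 (adjusted p = 7.4e-18), and Trp53bp1, for the 53BP1 protein, was lower at −0.75 ± 0.09 (adjusted p = 3.8e-10). These lists were chosen with earlier results of these data known.

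Other histone genes were tested too. Among Hist1h to Hist4h genes other than the members 12 of 62 could be tested, 8 of these were higher and 3 lower in cycling cells, and the median was 2.67. Hist1h1b rose by 4.81 ± 0.22 (adjusted p = 4.9e-22) and Hist1h1e by 3.10 ± 0.15 (adjusted p = 2e-21), both linker histones of S phase, whereas Hist1h1c from the same cluster was at 0.16. Hist3h2a fell by 1.20 ± 0.09 (adjusted p = 4.6e-15). Cenpa, the centromeric H3 variant, rose by 5.28 ± 0.18 (adjusted p = 1.4e-26) and H1fx by 0.99 ± 0.13 (adjusted p = 1.6e-08), and H2afy2, the second macroH2A gene, fell by 0.50 ± 0.09 (adjusted p = 1.5e-05), opposite in sign to H2afy.

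The position within the cycle was not used to pick the genes, and here the members differed. Cells with at least 2 more S than G2/M markers were compared with those of the opposite lead, in the same embryos with the embryo as a block. With the mixed gate, as designed (3229 S-leaning and 1874 G2/M-leaning cells), all 9 members were lower in S-leaning cells, where 19.6% of 9683 genes were called lower. Of these cells 721 S-leaning and 712 G2/M-leaning ones had at most 2 neuronal markers. The S-leaning side of the mixed gate thus held the larger share of cells with neuronal markers. That difference is close to a contrast used to pick the genes, and its part in the mixed values was not tested. The log2 fold changes there were −2.70 ± 0.20 for H2afx (adjusted p = 6.5e-10), −1.62 ± 0.09 for H2afv (5.6e-12), −1.53 ± 0.13 for H2afz (4.3e-09) and −1.33 ± 0.09 for H1f0 (1.2e-10), and those of the other 5 genes lay between −0.57 and −0.22. The call for H3f3a there (−0.22 ± 0.07, adjusted p = 0.012) was lost with DESeq2 (0.107), without a filter on low counts (0.121) and without control 16 (0.0534). Its S-leaning cells held a median of 1901.5 to 4603 UMIs per embryo and its G2/M-leaning cells 1331 to 2397.5. Within the stringent gate, a split added after the data were seen (721 and 712 cells), these medians lay closer together, at 1240.5 to 2516 and 1165.5 to 2281. There 8 of 9 members were lower in S-leaning cells, where 6.48% of 4723 genes were. The globin gene Hbb-bs, which no gate used, averaged 1809 ± 2096 CPM (SD, range 33.7 to 4972) in the stringent S-leaning cells. In the stringent G2/M-leaning cells it averaged 405 ± 205, and its part in the phase values was not tested. The values that follow are from the stringent gate.

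H2afx differed most. It stood at 15.0, 17.7, 45.4 and 37.4 CPM in S-leaning cells of mutants 10, 11, 12 and 17 and at 14.6, 4.92 and 16.6 in those of controls 14, 15 and 16, from 32 UMIs in all. In G2/M-leaning cells it stood at 91.0, 118, 215 and 146 and at 173, 157 and 205, from 223 UMIs. Every G2/M-leaning value lay above every S-leaning one. The log2 fold change was −2.89 ± 0.25 (adjusted p = 2.6e-14, lower in 7 of 7 embryos). These values are of polyadenylated RNA, so H2afx mRNA that ends at the stem-loop shown above may be missed in either phase. The same limit holds for Hist1h1c and for those Hist1h to Hist4h genes below that carry a stem-loop.

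H1f0 stood at 442, 443, 613 and 359 CPM in S-leaning cells of the mutants and 359, 285 and 503 in the controls. In G2/M-leaning cells these were 844, 886, 965 and 829 and 814, 716 and 1003. All 7 embryos were lower in S-leaning cells, the ranges did not overlap, and the log2 fold change was −1.04 ± 0.10 (adjusted p = 4.1e-13). The H2A.Z pair moved likewise: H2afv averaged 449 ± 95.3 (SD, n = 7) in S-leaning and 846 ± 169 in G2/M-leaning cells (−0.91 ± 0.11, adjusted p = 5.6e-10), and H2afz 65.7 ± 24.9 and 143 ± 50.0 (−1.13 ± 0.19, adjusted p = 5.8e-06).

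Smaller differences were seen for the genes that differed little between cycling cells and neurons. Hist1h1c averaged 175 ± 75.5 CPM (SD, n = 7) in S-leaning and 267 ± 89.7 in G2/M-leaning cells (log2 fold change −0.67 ± 0.15, adjusted p = 0.00086), H3f3b 795 ± 167 and 1001 ± 72.8 (−0.37 ± 0.09, adjusted p = 0.0034). For Hist1h2bc (−0.50 ± 0.15, adjusted p = 0.019) and H3f3a (−0.40 ± 0.13, adjusted p = 0.031) all 7 embryos were lower, but the call was lost without some embryos. For Hist1h2bc the adjusted p was 0.133 without mutant 10 and 0.0577 without control 15. For H3f3a it was 0.0515, 0.0534, 0.11 and 0.083 without mutants 10, 11, 12 and 17, and 0.0735 without control 15. H2afy did not pass, at 739 ± 121 and 756 ± 129.8 (−0.05 ± 0.09, adjusted p = 0.81), although the mixed gate gave −0.31 ± 0.06 (adjusted p = 0.00032).

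After every cell had been thinned to 1000 UMIs and the mixed gate applied again, which left out 6407 of 23005 cells as too shallow, 4 of 8 members that could be tested were lower in S-leaning cells, where 4.79% of 3676 genes were. These were H1f0 (−1.08 ± 0.11, adjusted p = 1.1e-16), H2afz (−1.16 ± 0.24, adjusted p = 0.00014), H2afv (−0.73 ± 0.10, adjusted p = 2.3e-09) and H3f3b (−0.31 ± 0.09, adjusted p = 0.0092). Hist1h1c (−0.13 ± 0.14), Hist1h2bc (−0.20 ± 0.15), H3f3a (−0.29 ± 0.14) and H2afy (0.04 ± 0.10) did not pass, and H2afx was too low to be tested.

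**Figure D2:**
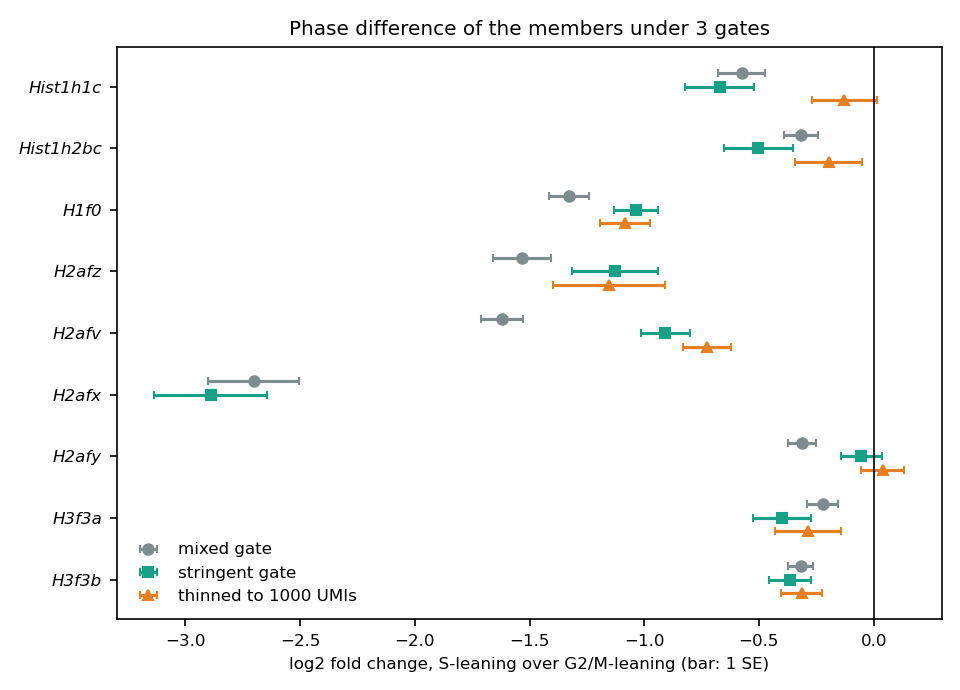
Log2 fold change of each member between S-leaning and G2/M-leaning cells (x axis, bar 1 SE over 7 embryos) for the mixed gate, the stringent gate and thinned cells. H2afx, without a thinned value, lay furthest below 0, H1f0, H2afz and H2afv lay near −1 in the stringent gate, and H2afy, at −0.05 there, lay near 0.

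The genes that handle histones were tested between the phases too. In the mixed gate 9 of 13 chaperones were lower in S-leaning cells and 0 higher (median −0.35, all genes −0.01), and in the stringent split 1 of 12 was lower and 2 higher (median −0.05). There Chaf1b (1.39 ± 0.24, adjusted p = 1.6e-05) and Chaf1a (0.63 ± 0.20, adjusted p = 0.037), the CAF-1 subunits, were higher in S-leaning cells, and no member was higher there. Hjurp (−1.64 ± 0.11, adjusted p = 1.7e-18), the chaperone of the centromeric variant, and its cargo Cenpa (−4.78 ± 0.20, adjusted p = 1.3e-26) were lower there, as were Anp32e (−0.94 ± 0.10, adjusted p = 2.2e-11) and Dek (−0.42 ± 0.11, adjusted p = 0.0039). Of the Hist1h to Hist4h genes 6 could be tested and 5 were lower in S-leaning cells: Hist1h1b (−1.50 ± 0.19, adjusted p = 8.4e-09), Hist1h1e, Hist1h1d, Hist1h1a and Hist3h2ba (median of the 6 −1.01, all genes 0.02).

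Interneuron-like cells held more Hist1h1c, H1f0 and H3f3b mRNA than excitatory-like neurons. Both classes were taken by class markers and not by the postmitotic gate. The wider gate below also let in cells with 1 cycling marker, and Pcna averaged 25.8 CPM in its interneuron-like and 23.8 in its excitatory-like cells. With the gate as fixed (297 and 1176 cells) 4 of 7 members tested were higher, where 9.8% of 2520 genes were called higher. With a wider gate added after the data were seen (928 and 3733 cells) 6 of 8 were higher, where 12.4% of 7032 genes were. Nrxn3, an interneuron gene that neither gate used, averaged 529.6 CPM in the wider interneuron-like cells and 13.9 in the excitatory-like ones. The values that follow are from the wider gate.

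H3f3b stood at 1253, 1038, 1141 and 1388 CPM in interneuron-like cells of mutants 10, 11, 12 and 17 and at 1119, 1074 and 1564 in those of controls 14, 15 and 16. In excitatory-like neurons it stood at 764, 766, 878 and 687 and at 717, 711 and 838. Every interneuron value was above every excitatory one (log2 fold change 0.66 ± 0.07, adjusted p = 2.2e-12). H3f3a, the other H3.3 gene, averaged 292 ± 99.5 and 233 ± 59.8 (0.30 ± 0.10, adjusted p = 0.018; higher in 6 of 7 embryos), and its call was lost without mutant 10 (adjusted p = 0.0731), mutant 12 (0.0636) or control 14 (0.0764).

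Of the linker histones, Hist1h1c stood at 292, 306, 733 and 305 CPM in interneuron-like cells of the mutants and at 139.8, 419 and 673 in the controls. In excitatory-like neurons it stood at 156, 208, 352 and 198 and at 56.6, 97.4 and 205. The ranges overlap because embryos differ widely, but each of the 7 embryos had the higher value in its interneuron-like cells (1.20 ± 0.11, adjusted p = 4.5e-14). H1f0 was higher in 7 of 7 embryos too, with means of 359 ± 129.5 and 174 ± 41.7 (1.02 ± 0.10, adjusted p = 1.1e-13).

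Hist1h2bc averaged 317 ± 179 and 196 ± 103 CPM (0.71 ± 0.11, adjusted p = 3.4e-07; 6 of 7 embryos) and H2afv 156 ± 23.2 and 114 ± 22.0 (0.41 ± 0.13, adjusted p = 0.017; 6 of 7 embryos). The call for H2afv was absent with the gate as fixed (0.59 ± 0.24, adjusted p = 0.073), without mutant 10 (adjusted p = 0.0735) and without mutant 17 (0.0709). H2afy (−0.07 ± 0.08, adjusted p = 0.58) and H2afz (−0.10 ± 0.30, adjusted p = 0.86) did not pass, and H2afx was too low to be tested. Interneuron-like cells had fewer UMIs, with a median of 1052 to 1461 per embryo against 1349 to 2022; among cells thinned to 1000 UMIs, Hist1h1c (0.91 ± 0.22), Hist1h2bc (1.01 ± 0.19), H1f0 (1.18 ± 0.20) and H3f3b (0.63 ± 0.12) were again higher, 4 of 6 tested where 9.77% of 1586 genes were.

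Other histone genes measured in this contrast were mixed. All 5 Hist1h to Hist4h genes tested were higher in interneuron-like cells, among them Hist1h1d (1.56 ± 0.24, adjusted p = 3.2e-07) and Hist1h2be (1.45 ± 0.20, adjusted p = 1e-08). Of 3 other variant genes tested, H2afy2 was higher (0.38 ± 0.10, adjusted p = 0.0028) and H2afj, an H2A variant gene, lower (−0.46 ± 0.17, adjusted p = 0.037). Of the H2A.Z exchange list 3 of 12 were higher, where 12.4% of all genes were: Anp32e (0.58 ± 0.10, adjusted p = 4.5e-06), Ep400 (0.61 ± 0.12, adjusted p = 2.7e-05) and Yeats4 (0.40 ± 0.13, adjusted p = 0.016). In that list 0 were lower. Ubn1 and Ubn2 of the H3.3 deposition list, both of the HIRA complex, were higher at 0.43 ± 0.16 (adjusted p = 0.044) and 0.58 ± 0.15 (adjusted p = 0.0019), 2 of 8 tested.

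Within excitatory-like neurons, deep-layer-like cells were lower in H2afy and H3f3b mRNA. With the gate as fixed, mutant 10 had fewer than 20 deep-layer-like cells and was left out; in the other 6 embryos H2afy (−0.74 ± 0.18, adjusted p = 0.00082) and H3f3b (−0.55 ± 0.15, adjusted p = 0.004) were lower, 2 of 4 members tested where 5.94% of 1464 genes were. With the wider gate (677 and 1041 cells, 7 embryos) 3 of 7 were lower, where 6.74% of 4838 genes were. H2afy stood at 357, 404, 356 and 321 CPM in deep-layer-like cells of the mutants and 266, 368 and 336 in the controls, against 389, 435, 389 and 548 and against 525, 480.1 and 444 in upper-layer-like cells. Each embryo was lower in its deep-layer-like cells (−0.42 ± 0.10, adjusted p = 0.0012).

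H3f3b averaged 612 ± 123 CPM in deep-layer-like and 796 ± 81.7 in upper-layer-like cells (−0.39 ± 0.08, adjusted p = 0.00014), and Hist1h2bc 119.5 ± 63.4 and 192 ± 126 (−0.66 ± 0.15, adjusted p = 0.00071), both lower in 7 of 7 embryos. Hist1h1c (−0.28 ± 0.14, adjusted p = 0.21), H1f0 (−0.20 ± 0.15, adjusted p = 0.47), H3f3a (−0.25 ± 0.12, adjusted p = 0.17) and H2afv (−0.03 ± 0.16, adjusted p = 0.94) did not pass. With the fixed gate, DESeq2 gave adjusted p values of 0.0503 for H2afy and 0.123 for H3f3b, and H3f3b was at 0.0538 without control 16. Among thinned cells, in 5 embryos, H2afy was lower (−0.81 ± 0.26, adjusted p = 0.018) and H3f3b did not pass (−0.17 ± 0.20, adjusted p = 0.68). H2afy2, the second macroH2A gene, was lower in the wider deep-layer-like cells as well (−0.48 ± 0.13, adjusted p = 0.0037).

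Radial glia-like and intermediate progenitor-like cells could be compared only with the wider gate, since with the fixed one fewer than 3 embryos had 20 cells of both classes. These classes, with at most 1 cycling marker per cell, were not pure: Stmn2 averaged 846 and 835 CPM in them. In 6 embryos 3 of 7 members tested were lower in radial glia-like cells, where 4.34% of 2900 genes were. Hist1h1c averaged 207 ± 124 against 354 ± 173 (−0.72 ± 0.17, adjusted p = 0.00096; lower in 5 of 6 embryos), H1f0 329 ± 96.2 against 491 ± 99.4 (−0.50 ± 0.13, adjusted p = 0.0051; 5 of 6) and Hist1h2bc 219 ± 139.9 against 325 ± 121 (−0.50 ± 0.16, adjusted p = 0.03; 6 of 6).

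These calls were fragile. DESeq2 called none of the 3 (adjusted p = 0.0987 for Hist1h1c, 0.197 for H1f0 and 0.273 for Hist1h2bc). H1f0 was at 0.0622 without control 15, and Hist1h2bc was at 0.182, 0.12, 0.0611 and 0.0796 without mutant 11, control 14, control 15 and mutant 17.

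Set side by side over 8 classes, the members fell into patterns that are described here without a test. G2/M-leaning cells were highest in H1f0, H2afz, H2afv, H2afx and H2afy, and interneuron-like cells in Hist1h1c, H3f3a and H3f3b; Hist1h2bc was highest in intermediate progenitor-like cells (325 ± 121, n = 6), just above interneuron-like cells (317 ± 179, n = 7). The ratio of the highest to the lowest class mean was 25.9 for H2afx, 8.3 for H2afv, 6.62 for H1f0 and 6.21 for H2afz. It was 4.61 for Hist1h2bc, 3.38 for Hist1h1c, 2.73 for H3f3a, 2.58 for H2afy and 2.27 for H3f3b. The lowest H2afx mean, in Cajal-Retzius-like cells, was 6.11 ± 9.50 CPM (SD, n = 6). It came from sums of 36007 to 72387 UMIs per embryo, so the H2afx ratio is uncertain.

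Few neighbours in these orders were apart. For H2afv the G2/M-leaning cells (846 ± 169) lay above the S-leaning (449 ± 95.3), these above radial glia-like cells (271 ± 35.7), and intermediate progenitor-like cells (251 ± 55.8) above interneuron-like cells (156 ± 23.2), each without overlap between embryos, while the 3 neuron classes at the end of the order, Cajal-Retzius-like (107 ± 44.4), upper-layer-like (105 ± 25.9) and deep-layer-like (102 ± 27.6), overlapped. For H1f0 and H2afx only the G2/M-leaning cells stood clear of the next class. For the other 6 genes every class overlapped with its neighbour. Cajal-Retzius-like cells, the early-born layer 1 neurons, had the lowest means of Hist1h1c, Hist1h2bc, H2afx, H2afy, H3f3a and H3f3b, but from only 214 cells.

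**Figure D3:**
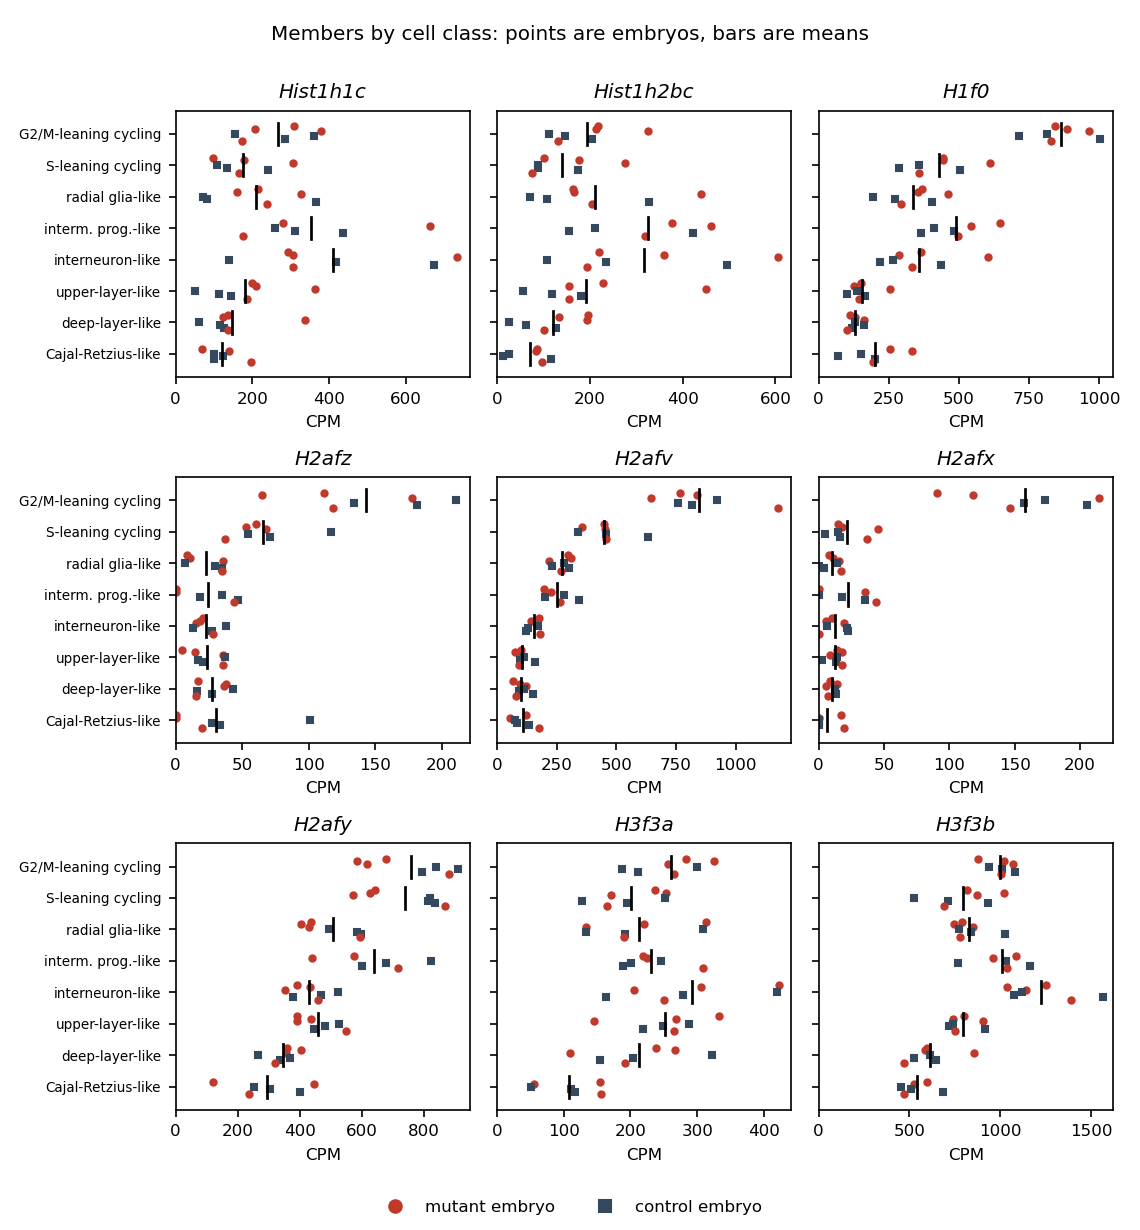
Level of each member (CPM, x axis from 0) in 8 classes; points are embryos with at least 20 cells of the class, red circles for mutants and dark squares for controls, and black bars are means. H2afx, H2afv and H1f0 stand out in G2/M-leaning cells, at means of 158, 846 and 865, whereas H3f3b is highest in interneuron-like cells at 1225.

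The genes most like each member over these 8 class means, among 4488 genes with a mean of at least 50 CPM, were found by Pearson's r of log2 levels, as a description. For H2afz they were Smc2 (r = 0.98), 2700094K13Rik (0.98) and Ncapg (0.97), and for H2afx Trim59 (0.97), Cep57 (0.97) and Ncapd2 (0.96); Smc2, Ncapg and Ncapd2 encode condensin subunits. For H2afv they included Tox3 (0.98) and Zfp191 (0.98), and for H1f0 they were Faf2 (0.97), Cdc5l (0.96) and Ing3 (0.95). Hist1h1c and H3f3b named each other (0.96); the other partners were Srrm2 and RP23-32A8.1 for Hist1h1c (both 0.95) and Ercc5 (0.98) and Pogz (0.97) for H3f3b. For Hist1h2bc they were RP23-32A8.1 (0.97), Sf3b1 (0.97) and Rlf (0.96), for H2afy Brix1 (0.98), Rps24 (0.98) and Prpf38b (0.98), and for H3f3a Fnbp4 (0.97), Uhrf1bp1l (0.97) and Khdrbs1 (0.96). The classes share libraries, and 8 points carry little information.

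Between embryos the Hist1 pair varied more than nearly any gene. Over all kept cells Hist1h1c stood at 206, 206, 431 and 176 CPM in mutants 10, 11, 12 and 17 and at 92.4, 166 and 269 in controls 14, 15 and 16. Hist1h2bc stood at 187, 250.2, 405 and 166.5 and at 88.2, 119.6 and 281. Both were highest in mutant 12 and lowest in control 14, and in each genotype the same embryo, mutant 12 or control 16, was highest for both genes.

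The ratio of the highest to the lowest embryo was 4.67 for Hist1h1c and 4.59 for Hist1h2bc, against a median of 1.36 over 4409 genes with a mean of at least 50 CPM; 0.159% and 0.181% of those genes had a ratio as large. H3f3a, with a ratio of 1.99 (3.04% of genes as large), ran the other way, at 159 in mutant 12 and 316 in control 14. H1f0 had a ratio of 1.98 (3.11%), H2afv 1.2 (88.4%) and H3f3b 1.22 (85.8%). The summed level of the 62 other Hist1h to Hist4h genes had the same extremes, 1099 in mutant 12 and 434 in control 14, with 745 in control 16. Control 14 was also the library with the highest median UMIs per kept cell (2133) and mutant 12 that with the lowest (1241.5); the part of depth in the histone values was not tested. After thinning to 1000 UMIs per cell Hist1h1c was at 444 in mutant 12 and 99.0 in control 14. Random thinning leaves the expected share of a gene in each cell unchanged, so these 2 values do not test depth.

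Mutants and controls are set side by side as a description, since the members were picked with this contrast in view. Over all cells the log2 fold changes of mutant over control were 0.60 ± 0.32 for Hist1h2bc, 0.51 ± 0.30 for Hist1h1c, 0.40 ± 0.14 for H1f0 and −0.33 ± 0.21 for H2afz (SE, n = 4 mutants and 3 controls), and those of the other 5 genes lay between −0.20 and 0.04. For all 9 members the embryos of the 2 genotypes overlapped, where 9.79% of 12893 genes did not overlap. By edgeR 0 of 9 members and 3 genes in all (0.0233%) were past an adjusted p of 0.05, and 1350 genes had an unadjusted p under 0.05; DESeq2 called 21 genes.

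In postmitotic neurons the differences were larger for 2 genes. H2afz stood at 10.8, 13.5, 17.2 and 20.6 CPM in mutants and 30.0, 23.6 and 34.3 in controls, and was the 1 of 9 members without overlap, where 7.31% of 9129 genes did not overlap (log2 fold change −0.88 ± 0.30). These levels rest on 6 to 18 UMIs per mutant and 20 to 34 per control, and among thinned cells the genotypes overlapped. Hist1h2bc stood at 228, 225, 376 and 158 in mutants and 52.4, 105 and 196 in controls (1.03 ± 0.24), with mutant 17 below control 16. Hist1h1c differed by 0.43 ± 0.24, H1f0 by 0.40 ± 0.16 and H2afy by −0.30 ± 0.14 on the log2 scale. The count of genes past the threshold was 1 (0.011%), and it was not a member.

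In cycling cells of the mixed gate H1f0 was the 1 of 9 members without overlap after normalisation, where 9.82% of 11994 genes did not overlap (0.47 ± 0.15). The margin was thin: the lowest mutant stood at 321.3 CPM after normalisation and the highest control at 320.2. In the stringent gate H1f0 was at 604, 658, 719.8 and 599 CPM in mutants and 588, 495 and 670.3 in controls (0.16 ± 0.15), and all 9 members overlapped, where 6.99% of 8368 genes did not. There Hist1h2bc differed by 0.52 ± 0.25, H2afz by −0.52 ± 0.23 and H2afy by −0.33 ± 0.15, and Hist1h1c by 0.13 ± 0.23.

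Summed levels of some neuronal markers differed between the genotypes beside these values. The summed level of the 18 postmitotic neuron markers over all cells was 5708 to 7905 CPM in mutants and 8103 to 8347 in controls, and that of the 8 upper-layer markers 816 to 884 and 1014 to 1070.0, both without overlap. Within postmitotic neurons, the cells of the H2afz and Hist1h2bc values above, the upper-layer sum was 958 to 1095 in mutants and 1202 to 1258 in controls, again without overlap. Their part in the genotype values of the histones was not tested. Fewer neurons and less RNA per neuron cannot be told apart in such sums. The deep-layer sum over all cells overlapped, at 577 to 713 CPM in mutants and 690 to 826 in controls. Cells of the postmitotic gate made up 17.4% to 24.5% of cells in mutants and 16.8% to 22.2% in controls, which overlap. Stringent cycling cells made up 5.52% to 10.9% of cells in mutants and 6.07% to 7.98% in controls. Over all cells erythroid markers summed to 1723 to 2468 CPM in mutants and 989 to 2847 in controls. Markers of meninges, microglia, endothelium, oligodendrocyte precursors and striatal neurons each summed to at most 83.1, and their genotype ranges overlapped.

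Whether the genotype difference itself differs between cycling cells and neurons was examined with an interaction. It is a contrast of its own, but it was fitted on the sums that the choice of genes had in view. Its p values for members are therefore not independent of that choice. No gene passed (0 of 10327 by edgeR, against 593 at an unadjusted p under 0.05). Hist1h2bc had the smallest p of the members, with a difference of −0.58 ± 0.13 on the log2 scale (unadjusted p = 4.9e-05, adjusted p = 0.17): the mutant excess was 0.44 in cycling cells and 1.03 in neurons. It was −0.59 ± 0.19 with the stringent gate (adjusted p = 0.88). Only 2 of the alternatives gave an adjusted p under 0.05 for it, 0.0241 without control 15 and 0.0437 without a filter on low counts. For H2afz the difference was 0.75 ± 0.29 (adjusted p = 0.73).

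Other replication-dependent histone genes lay mostly above 0 by genotype without passing the test. Over all cells the log2 fold change was positive in 26 of 30 Hist1h to Hist4h genes tested besides the members. These genes were measured in the same 7 embryos, so they do not count as separate replicates of the genotype. Summed over all 62 such genes the level was 667, 647, 1099 and 553 CPM in mutants 10, 11, 12 and 17. In controls 14, 15 and 16 it was 434, 523 and 745, so the genotypes overlapped. The median log2 fold change of the 30 genes was 0.37, against 0.003 for all genes. By edgeR 0 of the 30 passed and 6 had an unadjusted p under 0.05. In postmitotic neurons the median was 0.44 over 7 genes (0 passed by edgeR, 2 at an unadjusted p under 0.05) and in stringent cycling cells 0.40 over 15 (0 and 3). The other histone variant genes lay the other way: over all cells 1 of 4 was positive (median −0.17), in postmitotic neurons 0 of 3 (−0.17) and in stringent cycling cells 0 of 4 (−0.17). By edgeR 0 of them passed, and 0 had an unadjusted p under 0.05. The medians of the remaining lists over all cells were −0.15 for the chaperones, −0.09 for H3.3 deposition, −0.02 for histone mRNA processing, −0.01 for H2A.Z exchange and −0.002 for H2A.X signalling.

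**Figure D4:**
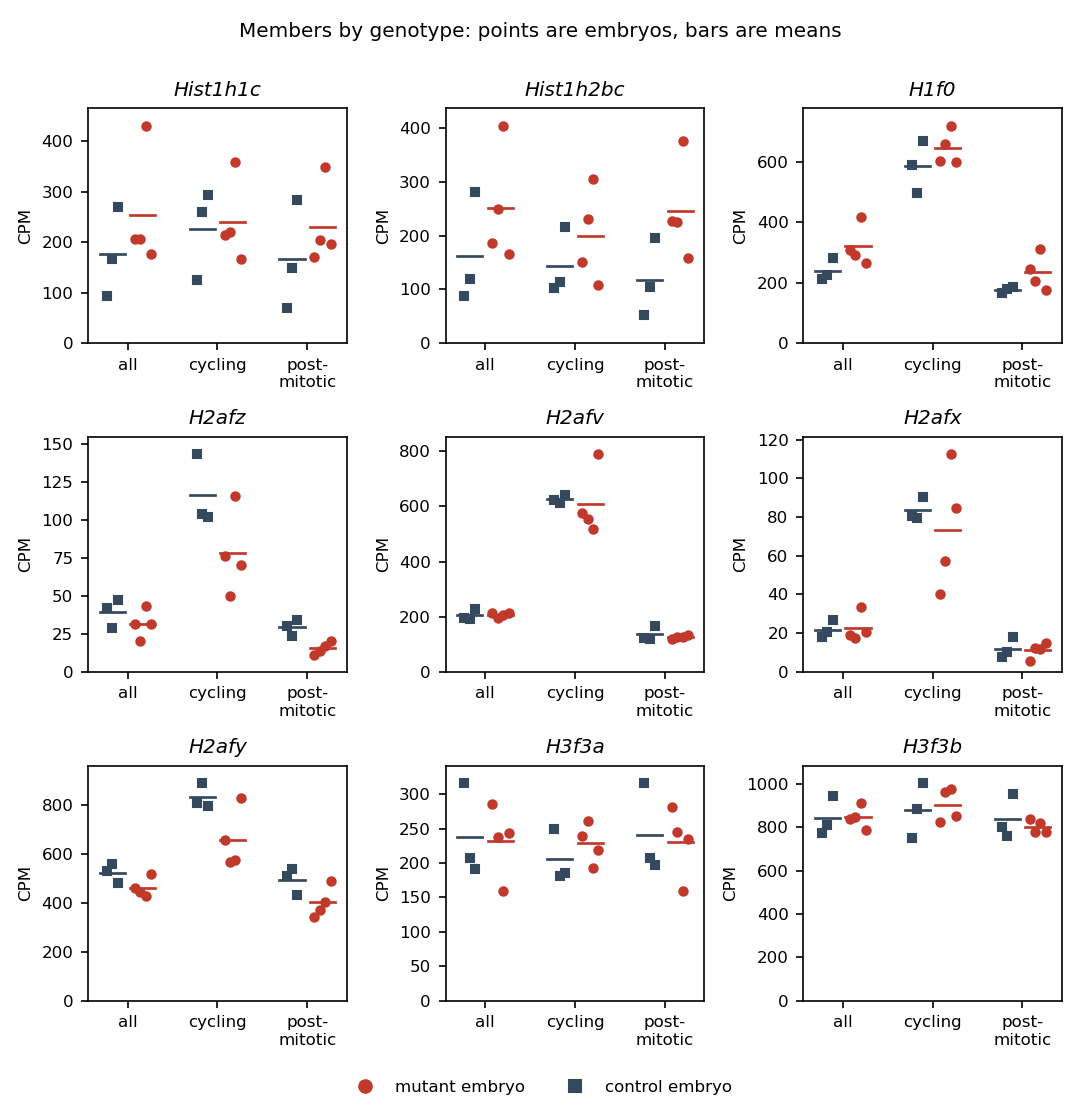
Level of each member (CPM, y axis from 0) by genotype over all kept cells, stringent cycling cells and postmitotic neurons; points are embryos (3 controls as dark squares, 4 mutants as red circles) and bars are means. Over all kept cells Hist1h1c runs from 176 to 431 in mutants and from 92.4 to 269 in controls, and only H2afz in postmitotic neurons, with 10.8 to 20.6 in mutants and 23.6 to 34.3 in controls, has no overlap.

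Some of these counts may hold reads of other genes. How reads of near-identical copies, of overlapping genes or of the other strand were counted is not given in the sources used here. H3f3a, H3f3b and H2afz belong to families with processed copies, and Hist1h1c and Hist1h2bc to a cluster of close paralogs, so each is uncertain as a single gene. In GENCODE M21 exons of H3f3a overlap H3f3aos and Gm17275, those of H1f0 Gm49544, those of H2afx Gm44335 and those of H2afy Gm47071, all on the opposite strand. The embryos are litter mates, and the labels give neither sex nor a library batch.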

How the data were processed

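Single-cell RNA of 7 cortices was analysed, 1 library per embryo. The authors deposited whole-number counts per gene and barcode, which the Seq-Well protocol makes UMI counts per the labels; STAR and mm10 are named per the submitters' processing notes. The STAR version, gene annotation and barcode filter were not given in the sources used here. Counts of kept barcodes were summed per embryo and marker gate (at least 20 cells each) and tested with edgeR 4.0.16 (TMM, filterByExpr, quasi-likelihood, two-sided, Benjamini-Hochberg over all genes tested), with the embryo as a block within embryos, since both sums come from the same animal. Embryos are the replicates. A class needed at least 2 of its 8 markers and a lead of 2 over the next class (1 in the wider gate), and no cycling marker (at most 1 in the wider gate). Doublets were not removed. DESeq2 1.42.0, other gates, filters, a fit without the embryo block, thinning and leaving out each embryo were alternatives. The wider class gate and the stringent phase split were added after the data were seen. The test was checked on simulated data. All 9 members are named, and of each list the genes past the threshold with the smallest p, at most 6. A gene that the likeness rule named is not reported here. Members, lists and gates were chosen with earlier results of these data known.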

Additional observations from a re-analysis of the deposited data

Results flagged for a closer look

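Over all kept cells Hist1h1c stood at 431 CPM in mutant 12, while the other 3 mutants lay between 176 and 206. The gap to the nearest of them was 0.885 of the whole range, above the 95% critical value of Dixon's test for 4 samples. Of 27 such checks (9 genes in 3 sets of cells, mutants only) this was the only one past the limit, and chance flags about 1 in 20.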

How the results depend on the processing

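Of the members' values under the alternatives, 831 kept their direction and their side of the threshold or moved by less than the spread, 29 moved by more or changed, 27 lost a call, 5 gained one and 16 changed sign. The interaction value of Hist1h1c (−0.06) ran from −0.28 to 0.060 when 1 embryo was left out, with a change of sign without mutant 11 (0.021), control 14 (0.037), control 15 (0.0015) and mutant 17 (0.060). That of H2afx (0.31) ran from −0.0029 without mutant 12 to 0.57, at −0.0019 without control 16, and that of H3f3a (0.01) from −0.021 without mutant 12 to 0.084. With the stringent gate these were −0.23 for H1f0, −0.020 for H2afx and −0.038 for H2afy. It was −0.014 for H2afy with thinned cells and −0.021 for H3f3a with at least 5 cycling markers. For H2afy, S against G2/M turned to 0.039 with thinned cells. Interneuron-like against excitatory-like cells, H2afy ran from −0.093 without mutant 10 to 0.012 without control 15, and was 0.0029 without mutant 17 and 0.0041 with at least 300 detected genes. The cause was not tested.

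Counts of genes called moved more. By genotype over all cells 3 became 21 with DESeq2 and 165 without a filter on low counts (3 to 26 leaving out an embryo). In cycling cells 4 became 16, 156, 0 with thinned cells (edgeR, 436 at an unadjusted p under 0.05), 2 with at least 5 markers and 1 with the stringent gate (1 to 38), and in neurons 1 became 29 without the filter and 4 thinned (1 to 17). Cycling against postmitotic, 3585 became 2317 with DESeq2 and 5594 with the stringent gate (3079 to 3512). The interaction count of 0 became 5 without the filter (0 to 7). S against G2/M, 3645 became 243 thinned and 492 with the stringent gate (3112 to 3626). Interneuron-like against excitatory-like, 529 became 962 without the filter, 340 thinned, 344 with 3 class markers and 1765 with the wider gate (446 to 563). Deep against upper, 203 became 94 with DESeq2, then 336, 79, 133 and 720 (149 to 231). Radial glia-like against intermediate progenitor-like, 309 became 121 with DESeq2 and 556 without the filter (221 to 302); the gate as fixed was not run for lack of cells.

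Without the embryo as a block, cycling against postmitotic gave 2031 genes, S against G2/M 2878, interneuron-like against excitatory-like 484, deep against upper 155 and radial glia-like against intermediate progenitor-like 174. Without the block Hist1h1c (adjusted p = 0.103), Hist1h2bc (0.378) and H3f3a (0.341) lost the call for S against G2/M in the mixed gate, and Hist1h2bc that for interneuron-like cells (0.0842). The genotype contrasts could not be paired, because mutants and controls are different embryos. Depth limits H2afx and H2afz outside the cycle, at a few UMIs per embryo.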
